A study of Homo sapiens with 12 samples.

Results

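The 10 genes described here carry out glucose uptake and the controlled steps of glycolysis. They were taken by symbol from the deposited table of RNA sequencing counts and comprise the glucose transporters SLC2A1 and SLC2A3, the hexokinases HK1 and HK2, the phosphofructokinases PFKL and PFKP, the pyruvate kinases PKLR and PKM and the lactate dehydrogenases LDHA and LDHB. All 10 of 10 symbols were found among the 28278 genes of the table, and all 10 passed the filter on low counts that left 15805 genes for testing. The cells were K562, a human erythroleukaemia line carrying the BCR-ABL1 fusion, either unedited (WT) or with HRG1 knocked out (KO). HRG1 is a heme transporter encoded by SLC48A1. Each genotype was either left untreated or given 0.75 mM sodium butyrate, a histone deacetylase inhibitor that drives K562 cells towards the erythroid lineage. The first dose came 24 h after plating, the next 48 h later, and cells were collected 6 h after that, while the series design speaks of day 8 of differentiation. There were 4 groups of 3 libraries: WT untreated, WT treated, KO untreated and KO treated. How the knockout was made, how many KO clones were used and whether replicates were separate cultures are not given in the sources used here, so p-values measure only the spread between these libraries, which may be technical.

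Glucose enters the cell through facilitative transporters, is trapped by a hexokinase, committed to glycolysis by phosphofructokinase and turned into pyruvate by pyruvate kinase, after which lactate dehydrogenase regenerates the NAD+ that the pathway needs. Mature red cells have no mitochondria and make their ATP by glycolysis, and they do so with a characteristic set of isozymes: hexokinase 1, a phosphofructokinase containing the L subunit encoded by PFKL, and the R-type pyruvate kinase encoded by PKLR. HK2, PFKP and PKM are the counterparts found in many dividing and tumour cells, and inherited defects of HK1 or PKLR cause hemolytic anemia.

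Library totals ran from 19963594 to 30348538 counts, and the 10 genes together took 0.292% to 0.377% of the counts of a library. SLC48A1 stood at 65.4 to 82.2 CPM in WT untreated libraries and at 2.94 to 8.32 CPM in KO untreated libraries, and with and without butyrate the KO libraries all lay under the WT libraries. Here CPM is the count scaled to library size with TMM factors. Of the 9 erythroid markers examined, 9 were above 3 counts, and their summed level was 7984 to 17478 CPM in WT untreated, 26308 to 56544 in WT treated, 3475 to 6153 in KO untreated and 4469 to 6382 in KO treated libraries. Markers of fibroblasts summed to at most 3.14 CPM, of T cells to at most 15.5, of B cells to at most 13.0, of monocytes to at most 28.97 and of epithelia to at most 74.2. Megakaryocyte markers summed to 26.2 to 49.5 CPM in WT untreated, 95.0 to 208 in WT treated, 4.87 to 19.3 in KO untreated and 50.7 to 64.9 in KO treated libraries. The libraries numbered 1 had the largest share of the 28S ribosomal RNA gene RNA28SN5 within each group. It took 2.30% to 5.63% of their counts and 0.673% to 2.86% of the counts of the others. These ranges overlapped, and in every group the share fell from number 1 to 2 to 3. On the second principal component, which held 20.9% of the variance, the treated libraries numbered 1 lay at 40.9 (WT) and 4.21 (KO), while the other treated libraries lay between -84.8 and -74.3. Results that rest on these libraries are given with and without them.

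In the edgeR fit by group, genes of the 10 passed an adjusted p of 0.05 only between the genotypes. Without butyrate, PKLR and PFKP were lower in KO than in WT cells. These were 2 of the 10 genes, against 22.6% of all genes tested in that comparison and 10.9% that were lower, so the share of changed genes among the 10 was close to the background. In the treated cells 0 of the 10 passed edgeR's threshold of an adjusted p of 0.05, against 19% of all genes tested. There 1 had an unadjusted p under 0.05, against 4993 of the 15805 genes tested, and DESeq2 called 0 (background 25.2%). For butyrate, 0 of the 10 passed in WT cells (background 2.35%) and 0 in KO cells (background 3.4%). At an unadjusted p under 0.05 there were 3 and 5, against 2849 and 3122 of the 15805 genes tested. DESeq2 called 1 and 2, against 8.42% and 9.73% of all genes. No difference between the genotypes in the response to butyrate passed for any of the 10, where 0 of all genes tested were called by edgeR and 658 had an unadjusted p under 0.05. DESeq2 called 81 genes (0.512%) for this interaction, which included 0 of the 10.

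The replicate numbers were taken to pair the libraries, a pairing that the labels do not state. A fit with the replicate number as a block called more of the 10 genes. It called 2 for butyrate in WT, against 8.61% of all genes. In KO cells it called 5 for butyrate, against 11.7% of all genes. It called 4 for KO against WT without butyrate and 3 with it, against 33% and 29.2% of all genes. It called 0 for the interaction, against 0.019% of all genes. Without the 4 libraries numbered 1 the unblocked fit called 1, 2, 3 and 2 in the same order, against 11.4%, 13.1%, 26.2% and 24.7% of all genes, and 0 for the interaction, against 0.0547%. DESeq2 called 2 for KO against WT untreated, against 28.5%. In both edgeR fits the genotype calls were near the background. With the block, 2 of 10 for butyrate in WT cells and 5 of 10 in KO cells lay above it. For butyrate in KO cells the unblocked fit of all 12 libraries called 0. DESeq2 called 2 there, as did the fit without the libraries numbered 1. The plot of fold changes marks values that passed with the block and not in the unblocked edgeR fit of all 12 libraries. Some of these also passed with DESeq2 or without the libraries numbered 1.

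**Figure D1:**
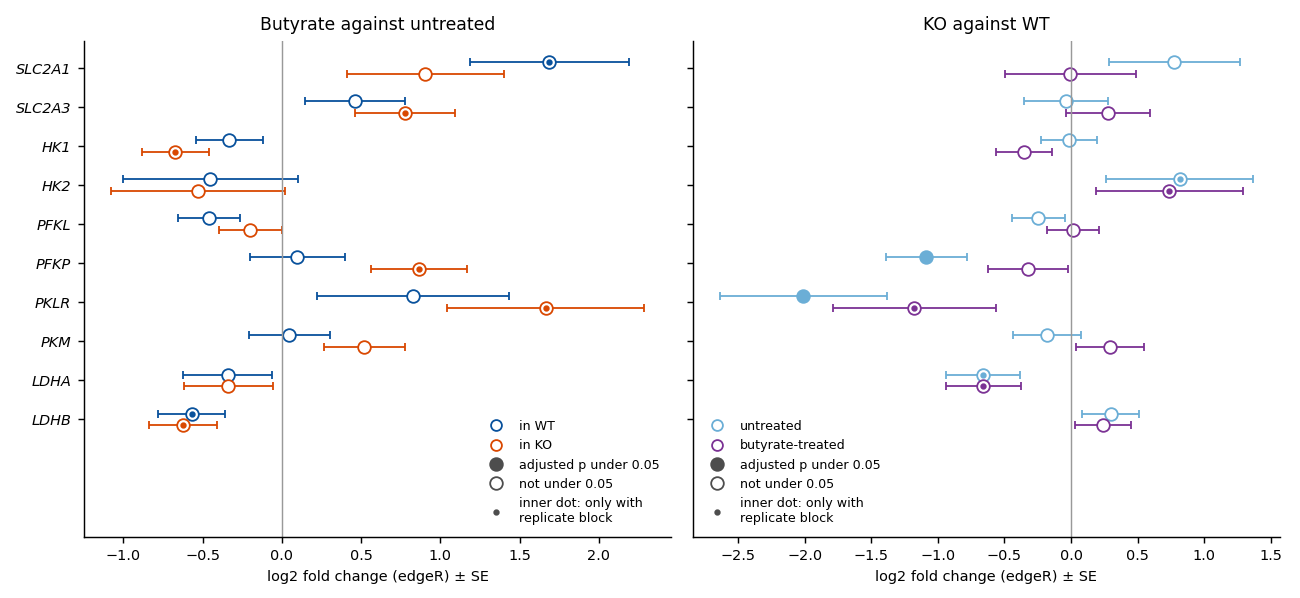
Log2 fold changes of the 10 genes with their standard errors from edgeR, for butyrate against untreated cells (left, WT and KO) and for KO against WT cells (right, untreated and treated). Filled circles have an adjusted p under 0.05, which holds for PFKP at -1.09 and PKLR at -2.01 in untreated cells. An inner dot marks an adjusted p under 0.05 in the fit with the replicate block but not in the unblocked edgeR fit. The dots take no account of DESeq2 or of fits with libraries left out.

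PKLR encodes the liver and red cell pyruvate kinase, which makes ATP and pyruvate at the last step of glycolysis. It lies at chr1:155289293-155308654 (GRCh38), and alternative starts give the red cell (R) and liver (L) forms, the R form beginning upstream of the L form. The 250 bases before its starts are shown because PKLR differed most between the genotypes. The corresponding window of PKM, its counterpart, is also shown, with a window of LDHA that carries another motif. The windows come from RefSeq (GRCh38.p14), where 9 of the 10 genes have a window. Capitals mark, on either strand, the letters GATA preceded by A or T and followed by A or G, which GATA factors can bind, and the E-box CACGTG, which reads the same on both strands.
PKLR, upstream start, chr1:155301439-155301688, minus strand: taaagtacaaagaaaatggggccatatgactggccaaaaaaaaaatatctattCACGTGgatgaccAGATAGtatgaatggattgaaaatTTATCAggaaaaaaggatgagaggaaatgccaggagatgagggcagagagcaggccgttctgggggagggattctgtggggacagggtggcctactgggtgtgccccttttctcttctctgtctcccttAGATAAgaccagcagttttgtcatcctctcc
PKLR, downstream start, chr1:155300953-155301202, minus strand: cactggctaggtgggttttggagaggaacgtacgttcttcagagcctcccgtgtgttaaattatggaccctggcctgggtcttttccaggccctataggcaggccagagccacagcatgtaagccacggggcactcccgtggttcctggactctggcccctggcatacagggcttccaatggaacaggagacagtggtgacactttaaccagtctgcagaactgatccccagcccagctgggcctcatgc
PKM, chr15:72231191-72231440, minus strand: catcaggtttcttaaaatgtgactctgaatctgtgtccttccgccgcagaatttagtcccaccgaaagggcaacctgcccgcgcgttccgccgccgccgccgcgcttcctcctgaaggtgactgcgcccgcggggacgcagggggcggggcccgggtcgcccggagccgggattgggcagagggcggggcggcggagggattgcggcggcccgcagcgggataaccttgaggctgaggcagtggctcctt
LDHA, chr11:18394313-18394562, plus strand: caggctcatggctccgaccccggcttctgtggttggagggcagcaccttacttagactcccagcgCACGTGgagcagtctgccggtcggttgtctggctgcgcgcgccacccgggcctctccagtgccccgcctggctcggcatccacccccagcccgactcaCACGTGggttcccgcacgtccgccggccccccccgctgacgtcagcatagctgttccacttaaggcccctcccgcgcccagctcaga
The window before the upstream PKLR start held 3 of the GATA words and 1 E-box, and the windows before the downstream PKLR start and before PKM held 0 of either. Elsewhere among the 9 genes, 1 window of HK1 held 2 GATA words, another window of HK1 held 1 and 1 window of PFKP held 1. Among 35116 such windows of 250 bases in the RefSeq table, 22.3% held at least 1 GATA word and 0.940% held at least 3. The LDHA window shown held 2 E-boxes, and another window of LDHA held 0. Of the windows of HK2, 1 held 2 E-boxes and another held 0. Among all windows, 0.535% held 2 or more E-boxes and 6.34% held at least 1. A match is a description of the letters and not a measured binding site.

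In untreated WT cells PKLR stood at 112, 70.6 and 131 CPM in replicates 1, 2 and 3, a mean of 104 ± 30.7 (SD, n = 3). In untreated KO cells it stood at 36.5, 21.8 and 19.5 CPM, a mean of 25.9 ± 9.22 (SD, n = 3). The 3 KO libraries all lay under the 3 WT libraries. PKLR was 4.03-fold lower in KO cells, a log2 fold change of -2.01 (SE 0.63, edgeR adjusted p = 0.0356), with the same direction in 3 of 3 same-numbered pairs. The blocked fit gave an adjusted p of 0.00111. In this bulk measurement, fewer cells making a transcript and less of the transcript per cell cannot be told apart. The summed erythroid markers given above were also lower in KO untreated libraries, and their part in the PKLR difference was not tested.

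The PKLR call rested on few libraries. It held in 7 of 12 fits that each left out 1 library, treated libraries included. It was lost without WT untreated replicate 1 (adjusted p = 0.0773) or 3 (0.0970), and without KO untreated replicate 1 (0.0532), 2 (0.113) or 3 (0.105). Among the libraries compared, it was kept only without WT untreated replicate 2 (adjusted p = 0.0453). The log2 fold change lay between -2.34 and -1.84 over the 12 fits. Without all 4 libraries numbered 1 it was -2.31 (edgeR adjusted p = 0.000644).

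With butyrate, PKLR was at 335, 81.1 and 141 CPM in replicates 1, 2 and 3 of WT cells and at 172, 38.8 and 36.4 CPM in KO cells. Replicate 1 was the highest library of both treated groups, and the groups overlapped with each other and with the untreated groups. KO against WT gave a log2 fold change of -1.18 (SE 0.61, edgeR adjusted p = 0.212), which did not pass, while the blocked fit gave -1.27 (adjusted p = 0.0191). Without the libraries numbered 1 the difference was -1.58 (edgeR adjusted p = 0.00603), and it ranged from -2.30 without KO treated replicate 1 (adjusted p = 0.0128) to -0.44 without WT treated replicate 1 (adjusted p = 0.623). Butyrate against untreated gave 0.83 (SE 0.61, edgeR adjusted p = 0.524) in WT and 1.67 (SE 0.62, 0.158) in KO cells, and the latter passed in the blocked fit at 1.37 (adjusted p = 0.0326) and with DESeq2 (adjusted p = 0.0467). PKLR was higher with butyrate in 6 of 6 same-numbered pairs, but the KO value was 0.85 without the libraries numbered 1 (edgeR adjusted p = 0.106) and 0.53 without KO treated replicate 1 alone (0.540). The difference between these responses was 0.84 (SE 0.86) and did not pass (edgeR adjusted p = 1.00).

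**Figure D2:**
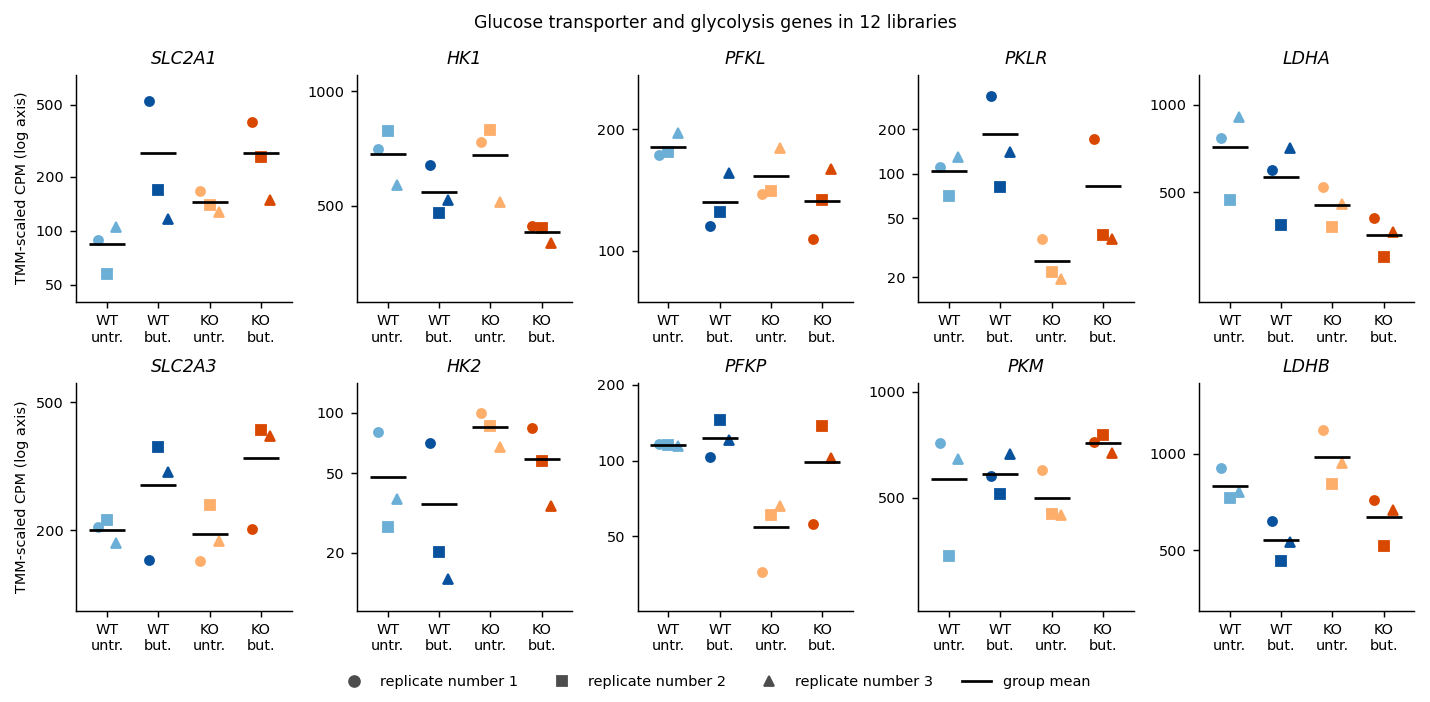
TMM-scaled CPM (log axes) of the 10 genes in each of the 12 libraries, by group, with group means as bars and replicate numbers as symbols; red cell isozymes are in the upper row for HK1, PFKL and PKLR, and their counterparts lie below them. The KO untreated libraries lie below all WT untreated libraries for PKLR and PFKP, and replicate 1 is the highest treated library for SLC2A1 and PKLR.

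PKM encodes the pyruvate kinase of most tissues, and gene counts do not separate its M1 and M2 splice forms. It ranged from 341 to 715 CPM in WT untreated, 513 to 665 in WT treated, 446 to 599 in KO untreated and 668 to 755 in KO treated libraries. None of its comparisons passed in edgeR, blocked or not, or in DESeq2. The largest was butyrate in KO cells at 0.52 (SE 0.26, edgeR adjusted p = 0.288), where the groups did not overlap. Of the 10 genes, 3 did not overlap between the groups there, PKM, HK1 and LDHB, against 24.4% of all genes.

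Since PKLR fell in KO cells without a called change of PKM, the ratio of the PKLR to the PKM count was followed within each library. In untreated cells it was 0.157, 0.207 and 0.204 in WT and 0.0610, 0.0484 and 0.0438 in KO replicates 1, 2 and 3. The groups did not overlap, and the ratio was 3.71-fold lower in KO cells. The log2 change was -1.89, and it was -2.16 without the libraries numbered 1. An exact two-sided permutation test gave p = 0.1, the smallest that 3 libraries against 3 allow, and 0.286 after adjustment over the 20 ratio comparisons made. In treated cells the ratio was 0.584, 0.158 and 0.212 in WT and 0.238, 0.0513 and 0.0545 in KO replicates, with overlapping groups (exact permutation p = 0.3, adjusted 0.5). Counts of different genes depend on their lengths, so these ratios compare groups and not the abundance of the isozymes.

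PFKP and PFKL encode the platelet-type and liver-type phosphofructokinase, the enzyme of the committed step. PFKP (chr10:3067548-3136805) stood at 116, 116 and 114 CPM in untreated WT replicates 1, 2 and 3, a mean of 115 ± 0.996 (SD, n = 3). It stood at 36.1, 60.6 and 65.7 CPM in untreated KO replicates, a mean of 54.2 ± 15.8 (SD, n = 3). All WT libraries were above all KO libraries. PFKP was 2.13-fold lower in KO cells, a log2 fold change of -1.09 (SE 0.30, edgeR adjusted p = 0.0215), and the blocked fit gave -1.15 (adjusted p = 0.00196). The call held in 8 of 12 fits with 1 library left out. Among the libraries compared, it was kept only without KO untreated replicate 2 (adjusted p = 0.0480) or 3 (0.0282). It was lost without WT untreated replicate 1 (adjusted p = 0.0523), 2 (0.0546) or 3 (0.0540) and without KO untreated replicate 1 (0.0863), and the log2 change stayed between -1.28 and -0.86.

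With butyrate PFKP was at 104, 145 and 121 CPM in WT replicates 1, 2 and 3 and at 55.8, 138 and 102 CPM in KO replicates. These groups overlapped, and KO against WT was -0.32 (SE 0.30, edgeR adjusted p = 0.519). Butyrate against untreated was 0.10 (SE 0.30, edgeR adjusted p = 0.913) in WT and 0.86 (SE 0.30, 0.136) in KO cells. The KO response was positive in 3 of 3 pairs and passed in the blocked fit (0.83, adjusted p = 0.0318), without the libraries numbered 1 (0.91, edgeR adjusted p = 0.0189) and without KO treated replicate 1 alone (1.14, 0.0285). The difference between the responses was 0.77 (SE 0.43, edgeR adjusted p = 1.00) and did not pass.

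PFKL ranged from 173 to 195 CPM in WT untreated, 115 to 156 in WT treated, 138 to 179.7 in KO untreated and 107 to 159 in KO treated libraries. It was lower with butyrate in 6 of 6 pairs, by a log2 fold change of -0.46 (SE 0.20, edgeR adjusted p = 0.244) in WT and -0.20 (SE 0.20, 0.624) in KO cells, and neither passed, blocked or not. Of the 10 genes, 3 did not overlap between treated and untreated WT cells, SLC2A1, PFKL and LDHB, against 21.7% of all genes. The ratio of PFKL to PFKP counts in untreated cells was 1.49, 1.52 and 1.71 in WT and 3.82, 2.32 and 2.73 in KO replicates 1, 2 and 3. In treated cells it was 1.11, 0.858 and 1.29 in WT and 1.91, 0.968 and 1.56 in KO replicates. The groups did not overlap for KO against WT untreated (log2 change 0.88), nor for butyrate in WT (-0.55) or in KO cells (-1.02). In each of these the exact permutation p was 0.1 (adjusted 0.286). The butyrate ratios were lower in 6 of 6 pairs.

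**Figure D3:**
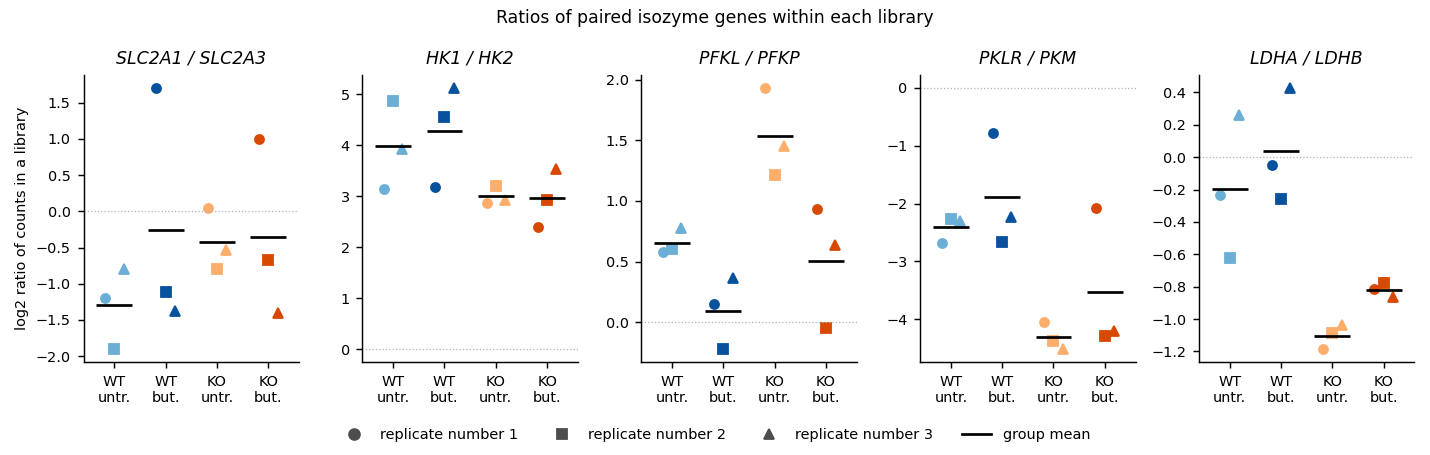
Log2 ratio of the counts of the paired isozyme genes within each library, by group, with group means as bars and replicate numbers as symbols. The PKLR to PKM ratios of KO untreated libraries lie between -4.51 and -4.04 and those of WT untreated libraries between -2.67 and -2.27; the LDHA to LDHB ratios of KO libraries all lie below those of WT libraries.

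The glucose transporter genes were SLC2A1 (GLUT1), which encodes the main glucose transporter of human red cells, and SLC2A3 (GLUT3), which encodes a high-affinity transporter. SLC2A1 (chr1:42925353-42958868) stood at 89.1, 57.5 and 105 CPM in untreated WT replicates 1, 2 and 3 and at 527, 168 and 117 CPM in treated WT replicates. Every treated WT library was above every untreated one, and replicate 1 was far above the others. Butyrate against untreated in WT was 1.69 (SE 0.50), or 3.22-fold, with an edgeR adjusted p of 0.104. It passed in the blocked fit (1.42, adjusted p = 0.0389) and with DESeq2 (1.71, adjusted p = 0.0146). Without the libraries numbered 1 it was 0.79 (edgeR adjusted p = 0.156), and without WT treated replicate 1 alone it was 0.75. The erythroid markers were also highest in treated WT libraries, and their part in the SLC2A1 difference was not tested.

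In KO cells SLC2A1 was at 165, 138 and 128 CPM untreated and at 404, 256 and 148 CPM treated, in replicates 1, 2 and 3. The groups overlapped, although the treated library was higher in 3 of 3 pairs, as in WT. The log2 fold change was 0.91 (SE 0.49, edgeR adjusted p = 0.338). The difference between the responses was -0.78 (SE 0.70, edgeR adjusted p = 1.00). Every untreated KO library was above every untreated WT library, with a log2 fold change of 0.78 (SE 0.49, edgeR adjusted p = 0.296). This passed only when these 6 libraries alone were fitted (0.77, adjusted p = 0.0352). Of the 10 genes, 3 did not overlap between untreated KO and WT cells, SLC2A1, PFKP and PKLR, against 42.3% of all genes. In treated cells the 2 that did not overlap were HK1 and PKM, against 33.9%.

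SLC2A3 stood at 204, 215 and 182 CPM in untreated WT replicates 1, 2 and 3 and at 161, 362 and 304 CPM in treated WT replicates. In KO cells it stood at 161, 239.6 and 185 CPM untreated and at 202, 408 and 392 CPM treated. Replicate 1 was the lowest treated library of both genotypes, the reverse of SLC2A1. Butyrate against untreated was 0.46 (SE 0.32, edgeR adjusted p = 0.492) in WT and 0.78 (SE 0.32, 0.193) in KO cells. The KO value passed in the blocked fit (0.74, adjusted p = 0.0495). Without the libraries numbered 1 both passed, at 0.73 (edgeR adjusted p = 0.0497) in WT and 0.90 (0.0221) in KO cells. SLC2A3 has a near-identical neighbour, SLC2A14, which had 28 to 151 counts per library, so its values are uncertain to the extent that reads were shared.

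The hexokinases trap glucose as glucose 6-phosphate. HK1 (chr10:69270000-69401882) stood at 704, 784 and 567 CPM in untreated WT and at 639, 477 and 517 CPM in treated WT replicates 1, 2 and 3. In KO cells it stood at 735, 790.2 and 511 CPM untreated and at 441, 437 and 399.7 CPM treated. HK1 was lower with butyrate in 6 of 6 pairs, and only in KO cells did the groups not overlap. The log2 fold change was -0.33 (SE 0.21, edgeR adjusted p = 0.455) in WT and -0.67 (SE 0.21, 0.107) in KO cells. The KO value passed in the blocked fit (-0.65, adjusted p = 0.0309) and with DESeq2 (-0.63, adjusted p = 0.0400). It did not pass without the libraries numbered 1 (-0.65, edgeR adjusted p = 0.122). The difference between the responses was -0.34 (SE 0.30, edgeR adjusted p = 1.00). KO against WT was -0.01 without butyrate and -0.35 with it, and neither passed.

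HK2, the insulin-responsive hexokinase of muscle and many tumours, stood at 79.9, 26.9 and 37.2 CPM in untreated WT and at 99.96, 85.8 and 67.6 CPM in untreated KO replicates 1, 2 and 3. With butyrate it stood at 70.3, 20.3 and 14.7 CPM in WT and at 83.9, 57.1 and 34.3 CPM in KO replicates. Replicate 1 was the highest library of all 4 groups, and within each number KO was above WT. KO against WT was 0.82 (SE 0.55, edgeR adjusted p = 0.326) untreated and 0.74 (SE 0.55, 0.405) treated. The blocked fit called both, at 0.96 (adjusted p = 0.0292) and 0.94 (adjusted p = 0.0364). Without the libraries numbered 1 the values were 1.24 (edgeR adjusted p = 0.0110) and 1.36 (0.00829), and without WT treated replicate 1 alone the treated value was 1.73 (0.0201). HK2 was lower with butyrate in 6 of 6 pairs, at -0.45 (SE 0.55, edgeR adjusted p = 0.727) in WT and -0.53 (SE 0.55, 0.643) in KO cells.

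The ratio of HK1 to HK2 counts was 8.81, 29.2 and 15.3 in untreated WT replicates 1, 2 and 3 and 7.35, 9.21 and 7.55 in untreated KO replicates. In treated cells it was 9.08, 23.5 and 35.05 in WT and 5.26, 7.65 and 11.6 in KO replicates. The WT libraries spread more widely than the KO libraries and the groups overlapped. The log2 change for KO against WT was -0.98 untreated and -1.33 treated, with an exact permutation p of 0.2 (adjusted 0.4) for each. The ratio of SLC2A1 to SLC2A3 counts overlapped between groups in all 4 comparisons, with exact permutation p values from 0.2 to 0.9.

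Lactate dehydrogenase converts pyruvate and NADH to lactate and NAD+, and its tetramers mix the A subunit of muscle and the B subunit of heart and red cells. LDHA stood at 769, 471 and 909 CPM in untreated WT and at 521, 379 and 457 CPM in untreated KO replicates 1, 2 and 3. With butyrate it stood at 596, 387 and 712 CPM in WT and at 408, 300.1 and 367 CPM in KO replicates. KO was below WT in 6 of 6 pairs although the groups overlapped, since replicate 2 was the lowest library of every group. KO against WT was -0.66 (SE 0.28, edgeR adjusted p = 0.111) untreated and -0.66 (SE 0.28, 0.125) treated. Both passed in the blocked fit, at -0.62 (adjusted p = 0.0155) and -0.62 (adjusted p = 0.0173). The untreated difference passed without WT untreated replicate 2 (-0.89, edgeR adjusted p = 0.0453). Neither difference passed without the libraries numbered 1, at -0.74 untreated (edgeR adjusted p = 0.1535) and -0.74 treated (0.1583).

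LDHB stood at 903, 726 and 758 CPM in untreated WT and at 617, 462 and 529 CPM in treated WT replicates 1, 2 and 3. In KO cells it stood at 1186, 805 and 939 CPM untreated and at 717, 515 and 668 CPM treated. Treated libraries were below untreated ones in both genotypes with no overlap. Butyrate against untreated was -0.57 (SE 0.21, edgeR adjusted p = 0.182) in WT and -0.63 (SE 0.21, 0.128) in KO cells. Both passed in the blocked fit, at -0.57 (adjusted p = 0.0305) and -0.62 (adjusted p = 0.0180). Neither passed without the libraries numbered 1, at -0.60 (edgeR adjusted p = 0.114) in WT and -0.58 (0.115) in KO cells. LDHA was lower with butyrate in 6 of 6 pairs too, at -0.34 in WT and -0.34 in KO cells, and passed in neither fit. KO against WT for LDHB was 0.30 (SE 0.21) untreated and 0.24 (SE 0.21) treated, opposite in sign to LDHA, and did not pass (edgeR adjusted p = 0.358 and 0.491).

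The ratio of the subunit genes did not overlap between the genotypes. LDHA to LDHB counts stood at 0.851, 0.649 and 1.20 in untreated WT and at 0.439, 0.471 and 0.487 in untreated KO replicates 1, 2 and 3. With butyrate the ratio was 0.967, 0.836 and 1.35 in WT and 0.569, 0.582 and 0.549 in KO replicates. The KO libraries lay under the WT libraries in both conditions, by a log2 change of -0.91 untreated and -0.86 treated. In KO cells every treated library was above every untreated one, by a log2 change of 0.28. For these 3 comparisons the exact permutation p was 0.1 (adjusted 0.286), the smallest possible. The KO ratios were tightly grouped, with an SD of the log2 ratio of 0.08 untreated and 0.04 treated, against 0.44 and 0.35 in WT.

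Levels of different genes were compared per kilobase of the principal transcript. In untreated WT cells the order was LDHB (517 ± 61.4 CPM per kb, SD, n = 3), LDHA (296 ± 92.6), PKM (208 ± 73.1), HK1 (190.1 ± 30.5), PFKL (62.2 ± 4.19), SLC2A3 (51.2 ± 4.34), PFKP (43.4 ± 0.375), PKLR (42.1 ± 12.4), SLC2A1 (22.9 ± 6.61) and HK2 (8.31 ± 4.88). Neighbours in this order whose libraries overlapped were LDHA and PKM, PKM and HK1, PFKP and PKLR, and PKLR and SLC2A1. In untreated KO cells PKLR came last at 10.5 ± 3.72 CPM per kb, below HK2 at 14.6 ± 2.81, with which it overlapped. PKLR was also last in KO untreated cells with the merged length of all annotated exons (8.19 CPM per kb). This length was chosen after the data were seen. In untreated WT cells it moved PFKL from the fifth to the eighth place (20.3). There PKLR (33.0) then stood above SLC2A3 (32.5), PFKP (23.8) and PFKL, and HK1 (109) stood above PKM (66.0). With the principal transcript, the level of PKM in untreated WT cells was above that of PKLR in all libraries (125 or more against 52.7 or less CPM per kb). HK1 stood above HK2 in every library of every group.

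To see whether the genotype differences were shared by neighbouring genes, each gene was set beside the tested genes within 2 Mb of it. Around PKLR the median log2 fold change of 108 genes for KO against WT untreated was -0.05, and 63 of 108 were below 0, against -2.01 for PKLR itself. Around PFKP the median of 13 genes was -0.71 and 11 of 13 were below 0, against -1.09 for PFKP. Around SLC2A1 the median of 52 genes was 0.66 and 42 of 52 were above 0, against 0.78 for SLC2A1. Without butyrate, PFKP and SLC2A1 thus lay among genes that differed in the same direction between the 2 lines. In treated cells the median around SLC2A1 was 0.49 and 41 of 52 were above 0, while SLC2A1 itself was at -0.007. Around PFKP the treated median was -0.48 and 12 of 13 were below 0, against -0.32 for PFKP. The part of the surroundings in these differences was not tested. The untreated median around HK2 was 0.08 (45 genes), around LDHA -0.27 (28 genes) and around LDHB -0.02 (9 genes).

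**Figure D4:**
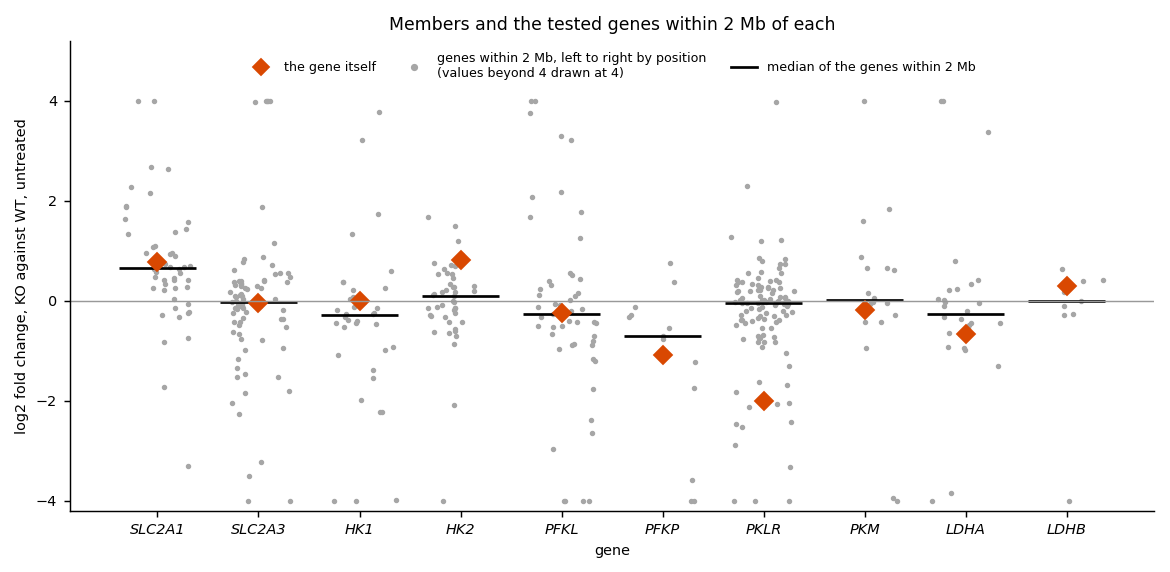
Log2 fold change of KO against WT in untreated cells for each of the 10 genes (diamonds) and for the tested genes within 2 Mb (grey points, left to right by position, values beyond 4 drawn at 4), with the median of the latter as a bar. PKLR at -2.01 lies far from its median of -0.05, while PFKP and SLC2A1 lie near medians of -0.71 and 0.66.

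Among all genes tested, those whose log2 CPM followed each isozyme gene most closely over the 12 libraries were listed as a description, since all share the same libraries. For PKLR they were TUBB1 (Pearson r = 0.949) and ANKRD27 (0.942), for PKM GPR61 (0.825) and CELF3 (0.812), and for PFKP GIT1 (0.973) and MMD (0.972). For PFKL they were MAN2C1 (0.940) and TMEM168 (0.916), for HK1 KIF4A (0.921) and DCAF17 (0.917), and for HK2 NIP7 (0.981) and L3MBTL2 (0.981).

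The remaining genes of glucose metabolism were taken as 5 lists of 76 genes, of which 65 were tested. The other glycolytic enzymes, such as aldolase, enolase and phosphoglycerate kinase, made up 20 genes, of which 15 were tested. In the unblocked edgeR fit of all 12 libraries, 0 of the 15 passed in any of the 5 comparisons. The shares of all genes there were 2.35% and 3.4% for butyrate in WT and KO. They were 22.6% and 19% for KO against WT untreated and treated, and 0% for the interaction. At an unadjusted p under 0.05 there were 2 for butyrate in WT, 1 for butyrate in KO, 0 and 1 for KO against WT untreated and treated and 0 for the interaction. In the same order these were 2849, 3122, 5475, 4993 and 658 of all 15805 genes tested. With the replicate block, 2 of the 15 passed for butyrate in WT, both higher, against 8.61% of all genes. Without the libraries numbered 1, 2 of 16 tested passed for butyrate in WT, against 11.4%. DESeq2 called 1 for butyrate in WT, 1 in KO (backgrounds 8.42% and 9.73%) and 0 in the other comparisons. Their median log2 fold change was 0.04 for KO against WT untreated, where that of all genes was 0.02, and 0.13 for KO against WT treated, where that of all genes was -0.002.

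Over the 5 lists, 15 of 65 genes passed for KO against WT untreated (6 higher, 9 lower; background 22.6%) and 16 treated (6 higher, 10 lower; background 19%), shares close to those of all genes. For butyrate 1 passed in WT and 3 in KO cells (backgrounds 2.35% and 3.4%), and 0 for the interaction. There 2 had an unadjusted p under 0.05, against 658 of all 15805 genes tested, and DESeq2 called 0. With the replicate block 6 list genes passed for butyrate in WT, 10 in KO cells and 23 for KO against WT untreated, against 8.61%, 11.7% and 33% of all genes. TALDO1 encodes transaldolase, which links the pentose phosphate pathway to glycolysis. It was at 615, 497 and 513 CPM in untreated WT and at 145, 154 and 176 CPM in untreated KO replicates 1, 2 and 3, a log2 fold change of -1.78 (SE 0.19, edgeR adjusted p = 3.07e-05). The groups did not overlap, and TALDO1 also passed in treated cells at -1.23 (edgeR adjusted p = 0.000586). Of the genes within 2 Mb of TALDO1, 51 of 65 were below 0 in the untreated comparison, with a median of -0.70.

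Of the 20 tested regulators of glycolysis and pyruvate entry, 6 passed for KO against WT untreated, 2 higher and 4 lower, against 22.6% of all genes. MPC2, a subunit of the mitochondrial pyruvate carrier, was at 139, 128 and 127 CPM in untreated WT and at 34.3, 14.2 and 16.5 CPM in untreated KO replicates 1, 2 and 3, a log2 fold change of -2.60 (SE 0.29, edgeR adjusted p = 4.94e-05), and at -2.33 in treated cells. Its partner MPC1 was lower by -1.28 (SE 0.29, edgeR adjusted p = 0.00723) untreated and -1.18 treated, and all 8 tested genes within 2 Mb of it were below 0 as well. PDHA1, a catalytic subunit of pyruvate dehydrogenase, was lower by -1.13 (SE 0.20, edgeR adjusted p = 0.00130) and -1.18. These calls held in all 12 fits with 1 library left out. Of the 9 tested genes within 2 Mb of PDHA1, 5 were below 0 untreated (median -0.76) and 7 treated (median -0.67). Their part in the PDHA1 difference was not tested. PDK1, a kinase that inhibits pyruvate dehydrogenase, passed in treated cells at -1.19 (edgeR adjusted p = 0.0285) and untreated in the blocked fit (-0.74, adjusted p = 0.0257) and without the libraries numbered 1 (-0.76, edgeR adjusted p = 0.0481). PDHB, the partner subunit of PDHA1, was instead higher, at 0.89 (edgeR adjusted p = 0.0202) treated and, in the blocked fit, 0.68 (adjusted p = 0.00664) untreated, where the unblocked value was 0.69 (edgeR adjusted p = 0.0541). Of the 20 tested genes within 2 Mb of PDHB, 17 were above 0 untreated (median 0.62) and 19 treated (median 0.67), and their part in the PDHB difference was not tested. The treated PDK1 call was lost without WT treated replicate 2 (adjusted p = 0.0713) or 3 (0.131) or KO treated replicate 1 (0.0939) or 3 (0.0657), and that of PDHB without WT treated replicate 2 (0.0657) or 3 (0.0682) or KO treated replicate 1 (0.0637).

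TIGAR, which lowers fructose 2,6-bisphosphate and so restrains phosphofructokinase, was higher in KO cells by 2.55 (SE 0.69, edgeR adjusted p = 0.0179) untreated and 2.73 (SE 0.68, 0.0142) treated, at levels of at most 3.69 CPM. Its untreated call was lost without WT untreated replicate 2 (adjusted p = 0.0650) or KO untreated replicate 1 (0.0734) and without all libraries numbered 1 (0.0639), and its treated call without WT treated replicate 2 (0.0555). PFKFB2, which makes the same activator, was the 1 list gene that passed for butyrate in WT cells in the unblocked edgeR fit. It rose from 43.8, 30.4 and 49.96 CPM to 92.8, 108 and 105 CPM in replicates 1, 2 and 3. The log2 fold change was 1.30 (SE 0.26, edgeR adjusted p = 0.0271). In KO cells it was 0.68 (SE 0.26, 0.169), and the difference between the responses did not pass (-0.62, SE 0.37, adjusted p = 1.00). The WT call was lost without WT untreated replicate 1 (adjusted p = 0.0966) or 2 (0.119) or WT treated replicate 2 (0.105) or 3 (0.0783). PDK3 had 0 counts in all 3 KO untreated libraries and 0, 28 and 28 in WT untreated replicates, and no fold is given. Its call (edgeR adjusted p = 0.0303) held in 7 of 12 fits with 1 library left out, with an adjusted p of up to 0.0776. Of the fits without an untreated library, only that without WT replicate 1 kept it.

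Among transporters, BSG, the chaperone of the lactate carriers, was at 713, 598 and 687 CPM in untreated WT and at 1487, 1779 and 2463 CPM in untreated KO replicates 1, 2 and 3. All KO libraries were above all WT libraries, with a log2 fold change of 1.52 (SE 0.24, edgeR adjusted p = 0.000588) untreated and 1.31 treated. SLC2A11 was higher in KO cells by 1.32 (SE 0.25, edgeR adjusted p = 0.00259) untreated and 0.98 (0.0166) treated. The treated call was lost without KO treated replicate 3 (0.0647) and without the libraries numbered 1 (0.0655). Of the 47 tested genes within 2 Mb of SLC2A11, 34 were above 0 untreated (median 0.42) and 37 treated (median 0.56). Their part in the SLC2A11 difference was not tested. SLC2A13, a proton-coupled inositol transporter of the same family, had 241, 263 and 281 counts in untreated WT and 1, 7 and 4 in untreated KO replicates (edgeR adjusted p = 0.000115). SLC16A3, the lactate exporter MCT4, rose with butyrate in KO cells from 2.03, 1.19 and 4.25 CPM to 15.2, 18.6 and 9.12 CPM, a log2 fold change of 2.51 (SE 0.50, edgeR adjusted p = 0.0227). In treated cells it was higher in KO than in WT by 1.91 (SE 0.49, edgeR adjusted p = 0.0168). In WT cells its butyrate value was 1.16 (SE 0.49, 0.239), and the difference between the responses, 1.36 (SE 0.69, adjusted p = 1.00), did not pass. The butyrate call was lost without KO untreated replicate 1 (adjusted p = 0.0964) or 2 (0.115) or KO treated replicate 2 (0.106), and the treated call without WT treated replicate 2 (0.0610) or 3 (0.0503) or KO treated replicate 2 (0.0740). SLC2A6, another family member, also rose with butyrate in KO cells, by 3.27 (SE 0.75, edgeR adjusted p = 0.0357). This call held in 6 of 12 fits with 1 library left out, with an adjusted p of up to 0.171. Of the fits without a KO library, only that without KO treated replicate 1 kept it. In WT cells the SLC2A6 value was 2.67 (SE 0.75, edgeR adjusted p = 0.0872), which passed with the block (2.38, adjusted p = 0.0449), with DESeq2 (adjusted p = 0.00655) and without the libraries numbered 1 (adjusted p = 0.0171). The difference between the SLC2A6 responses, 0.60 (SE 1.01, edgeR adjusted p = 1.00), did not pass.

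Of 13 hypoxia-response genes outside glycolysis, 4 passed for KO against WT untreated, 2 in each direction, against 22.6% of all genes. VEGFA, the vascular growth factor, was lower in KO cells by -1.86 (SE 0.50, edgeR adjusted p = 0.0186) untreated and -2.25 (SE 0.51, 0.00863) treated. Its untreated call was lost without WT untreated replicate 2 (adjusted p = 0.0760) or KO untreated replicate 1 (0.0739), and 48 of 62 genes within 2 Mb of it were below 0. NDRG1 was lower by -4.19 (SE 0.90, edgeR adjusted p = 0.00497) and -3.51 (SE 0.84, 0.0114). ADM (1.91, edgeR adjusted p = 0.0372) and EGLN1 (0.61, adjusted p = 0.0375) were higher in untreated KO cells. These calls held in 3 and 5 of 12 fits with 1 library left out, with adjusted p of up to 0.147 and 0.158. Of the fits without an untreated library, the ADM call was kept only without KO replicate 1. The EGLN1 call was kept there only without WT replicate 1 or KO replicate 3. EGLN3, an oxygen-sensing hydroxylase, rose with butyrate in KO cells by 2.31 (SE 0.44, edgeR adjusted p = 0.0185) and in the blocked fit also in WT cells by 1.33 (adjusted p = 0.0334), where the unblocked value was 1.39 (edgeR adjusted p = 0.113) and DESeq2 gave an adjusted p of 0.0266. The KO call was lost without KO untreated replicate 1 (0.0752) or 2 (0.112) or KO treated replicate 2 (0.0781). For KO against WT, 10 of the 13 genes were below 0 untreated (median -0.28) and 9 treated (median -0.41). Of all 15805 genes tested, 7724 were below 0 untreated (median 0.02) and 7925 treated (median -0.002).

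**Figure D5:**
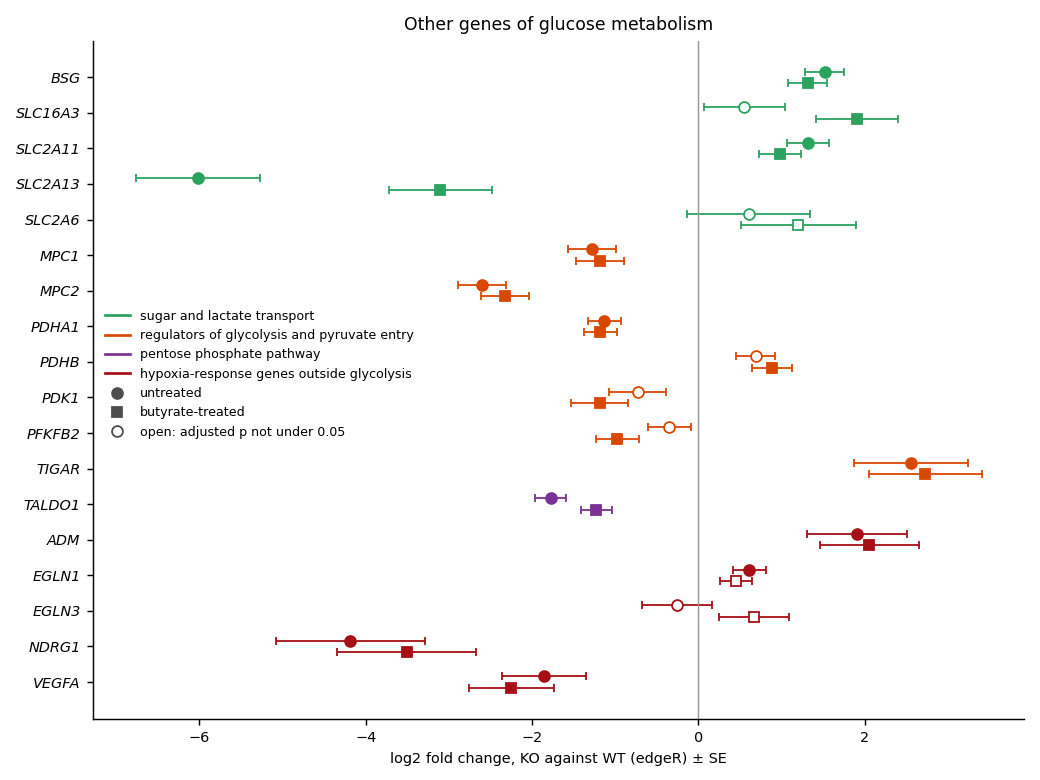
Log2 fold change of KO against WT cells with its standard error (edgeR), untreated (circles) and treated (squares), for the named list genes that passed in at least 1 of the 5 comparisons, other than PDK3; open symbols did not pass. TALDO1, MPC1, MPC2 and PDHA1 lie below 0 in both conditions and BSG and SLC2A11 above it.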

How the data were processed

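Total RNA was extracted with TRIzol from K562 cells and sequenced as 12 libraries, per the labels' protocols. The authors deposited 1 table of raw counts per gene, made with FastQC 0.12.1, STAR 2.7.11b and the hg38 build per the submitters' processing notes; the counting tool, annotation and use of strand are not given in the sources used here. Gene counts do not separate the R and L forms of PKLR, and processed pseudogenes could take reads of LDHA and PKM. Depth limits precision: 3 counts, the most a count of 0 allows, equal 0.0989 to 0.150 CPM.

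Of 28278 genes, 6319 had 0 counts everywhere and 15805 passed edgeR's filterByExpr (minimum count 10). Counts of all 12 libraries were fitted by group with edgeR 4.0.16 (quasi-likelihood, TMM scaling, common biological coefficient of variation 0.384) in R 4.3.3, with 5 contrasts and Benjamini-Hochberg adjustment over all genes tested (threshold 0.05). The fit was tested on simulated data. Ratios of isozyme counts had 0.5 counts added and were compared by exact permutation. Likeness used log2 CPM with a prior count of 2. Alternatives were DESeq2 1.42.0, other scalings and filters, only the groups compared, a replicate block, each library left out, and the 4 libraries numbered 1 left out.

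Same-numbered libraries deviated together, with correlations of 0.147 to 0.468 for butyrate in KO and 0.195 to 0.409 in WT. These were 0.210 to 0.361 between untreated and 0.315 to 0.595 between treated genotypes. Differently numbered libraries gave -0.441 to 0.123, -0.439 to 0.187, -0.288 to 0.069 and -0.512 to 0.343 in the same order. Between treated genotypes the ranges overlapped, as replicate 2 of WT with replicate 3 of KO gave 0.343 and replicate 2 with replicate 2 gave 0.315. The numbers were taken to pair the libraries, and this pairing comes from the data and the numbers in the labels. The members and lists were chosen with earlier results of these data known. List genes were named where they passed in at least 1 contrast, up to the 20 smallest adjusted p; 1 of them is not reported here.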

Additional observations from a re-analysis of the deposited data

How the results depend on the processing

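With the replicate block, the number of the 10 genes called was 2 for butyrate in WT, 5 in KO, 4 for KO against WT untreated and 3 treated. DESeq2 gave 1 and 2 for butyrate in WT and KO. Without the libraries numbered 1 the counts were 1, 2 and, for KO against WT treated, 2. Leaving out 1 library gave 0 to 1 for butyrate in KO, 0 to 2 for KO against WT untreated and 0 to 1 treated. With the block, neither call of PFKP or PKLR was lost. Of the list genes, the block called 6, 10 and 23 for butyrate in WT, in KO and KO against WT untreated, DESeq2 4 and 6 for butyrate, the fits without the libraries numbered 1 7 and 10, the fit of only the groups compared 0 for butyrate in WT, and the filter of at least 10 counts in every library 9 for KO against WT untreated. Leaving out 1 library gave 0 to 5, 0 to 4 and, for KO against WT treated, 10 to 19.

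Of all genes, for butyrate in WT the block called 1361, DESeq2 1331, the fit without the libraries numbered 1 1884 and only the groups compared 63, and for butyrate in KO these were 1852, 1538 and 2164, with 304 under the stricter filter. KO against WT gave 2334 untreated and 1947 treated under that filter, and treated 4612 with the block and 1802 with only the groups compared. The interaction gave 3, 81 and 9 with the block, DESeq2 and without the libraries numbered 1, 1 under the stricter filter and 2 with no filter. Leaving out 1 library gave 43 to 1243, 48 to 1039 and, for the interaction, 0 to 2.

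Signs turned only for changes that passed in neither fit. SLC2A1 for KO against WT treated was 0.18 with library size alone, 0.12 with the block and 0.48 without the libraries numbered 1 (-0.42 to 0.91 leaving out 1 library). SLC2A3 untreated was 0.0772 without the libraries numbered 1 (-0.24 to 0.0843) and treated -0.00368 to 0.54. PFKL treated was -0.00719 with only the groups compared (-0.14 to 0.15). The interaction was 0.11 and 0.12 for HK2 and 0.0677 and 0.0177 for LDHB with library size alone and without the libraries numbered 1, and -0.000792 for LDHA with the block. Leaving out 1 library, the interaction ran from -0.66 to 0.95 for HK2, -0.17 to 0.11 for LDHB, -0.21 to 0.23 for LDHA, -0.29 to 1.60 for PKLR and -1.20 to 0.16 for SLC2A1. Likewise KO against WT untreated ran from -0.17 to 0.12 for HK1 and -0.44 to 0.0219 for PKM, and butyrate in WT from -1.47 to 0.13 for HK2, -0.0405 to 0.20 for PFKP and -0.22 to 0.25 for PKM. The PKLR to PKM ratio change untreated was -2.16 without the libraries numbered 1. The cause of these changes was not tested. Library size alone shifted the median of all genes by 0.12 for butyrate in KO and 0.11 for the interaction.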
